A study of Mus musculus with 4 samples.

Results

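Protein kinase C (PKC) isoforms and their close partners were examined in 4 mouse melanocyte lines grown with the phorbol ester TPA. The 10 genes were chosen by name: the classical isoforms Prkca and Prkcb, the calcium-independent isoforms Prkcd, Prkce, Prkch and Prkcq (nPKC), the atypical isoforms Prkci and Prkcz, the related kinase Prkd1 and the Ras exchange factor Rasgrp3. All 10 were measured, by 24 probe sets that are each listed with 1 of these genes alone, among 18193 genes in all. The study asked how activated β-catenin changes melanocytes, and derived the lines from the skin of C57BL/6J pups. Neither the labels nor the article give the age of these pups. Lines 9v and 14d are labelled WT. Lines 10d and 13d are labelled bcat*, the genotype of mice with a stable, active β-catenin mutant that a transgene expresses in the melanocyte lineage. The article gives lines 13d and 14d the opposite genotypes, 13d as WT and 14d as bcat*, so the genotype of these lines is disputed and values are given by line. The labels give lines 9v and 10d as male and lines 13d and 14d as female. All 4 lines were immortalized, went through G418 selection against fibroblasts, and were grown to 80% confluency in Ham's F12 medium with 10% FBS, antibiotics and 200 nM TPA. Each line stands for its genotype as an established culture, and 1 array was run per line, so that no level has a replicate. No line without TPA was measured, so the effect of TPA on any of these levels cannot be told from these arrays.

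PKC isoforms are serine/threonine kinases that differ in what turns them on. Classical isoforms respond to calcium and to the lipid diacylglycerol, nPKC isoforms to diacylglycerol without calcium, and atypical isoforms to neither. TPA stands in for diacylglycerol at the C1 domains of classical and nPKC isoforms, of protein kinase D and of RasGRP proteins, and is added to melanocyte cultures because it supports their growth. Long exposure to phorbol esters is known to deplete classical and nPKC proteins, and arrays measure RNA, not protein.

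The arrays were alike in their distribution. Median intensities were 7 or 8, and between 35.8% and 36.1% of probe sets reached an intensity of 32, the level taken here as detection. Of 12 melanocyte markers, 11 were detected in all 4 lines, and Ednrb was at 29 in each by its brightest probe set, while another of its probe sets was at 34 in line 14d and 7 in the others. The labelled sexes matched the arrays, since Xist, which is expressed from the inactive X chromosome, was at 2124 (13d) and 1768 (14d) in the lines labelled female but at 4 in lines 9v and 10d. Markers of other cells were mostly under the detection level. Of those measured, 1 of 10 fibroblast markers, 1 of 9 keratinocyte markers, 1 of 10 endothelial markers, 2 of 9 immune markers and 4 of 8 Schwann cell markers were detected. The defining genes Col3a1, Krt14, Pecam1 and Ptprc were between 4 and 8 in every line by their brightest probe sets. The detected fibroblast marker was Col1a2, at 175 in line 9v and 80 in line 10d. The detected endothelial marker was Vwf, at 182, 76 and 52 in lines 9v, 10d and 13d. The keratinocyte marker Krt10 was detected in every line, from 106 in line 14d to 268 in line 10d.

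Of the 10 genes, 7 were detected in all 4 lines, Prkcz was detected in 3, and Prkcb and Prkch were under the detection level in every line. Each group of isoforms that binds TPA thus had detected members, the classical group through Prkca, the nPKC group through Prkcd, Prkce and Prkcq. Both atypical isoforms were detected as well. Intensities of different probe sets have no common scale, so that these values give no order between genes.

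**Figure D1:**
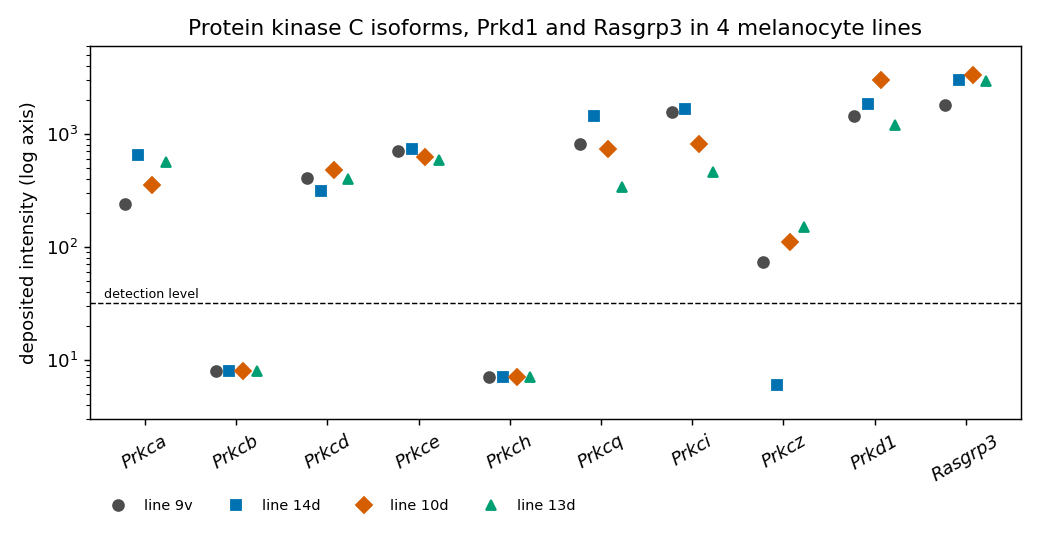
Deposited intensity (log axis) of the brightest probe set of each of the 10 genes in lines 9v, 14d, 10d and 13d, 1 array per line and therefore without error bars. The dashed line marks the detection level of 32, under which Prkcb and Prkch lay in every line and Prkcz in line 14d.

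Prkca encodes PKCα, a classical isoform found in most tissues. Its brightest probe set had intensities of 241 in line 9v, 351 in line 10d, 559 in line 13d and 646 in line 14d. Its second detected probe set had 153 in line 9v, 86 in line 10d, 233 in line 13d and 112 in line 14d. The probe sets thus ordered the lines differently: line 14d was highest by the first and line 13d by the second. The ratio of line 10d to line 9v was 1.46 by the first and 0.562 by the second, so no direction between these lines can be given for Prkca. The remaining probe set was between 7 and 9.

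Prkcb encodes PKCβ, a classical isoform known in pigment cells as an activator of tyrosinase. Its 3 probe sets had intensities from 5 to 8 over all lines, and the brightest was at 8 in each. Prkch encodes PKCη, an nPKC isoform known from epithelia, and its 2 probe sets were at 5 and at 7 in each line. Neither gene had a value near the detection level in any line.

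Prkcd encodes PKCδ, an nPKC isoform known for roles in cell death and differentiation. It had intensities of 407 in line 9v, 483 in line 10d, 397 in line 13d and 313 in line 14d, and its other probe set was at 5 throughout. The highest line was 1.54-fold above the lowest. Prkce encodes PKCε, an nPKC isoform linked to growth signalling. It had intensities of 699 in line 9v, 626 in line 10d, 590 in line 13d and 734 in line 14d, the narrowest spread among the 8 detected genes at 1.24-fold. Of its other probe sets, one had 477, 450, 342 and 464 in lines 9v, 10d, 13d and 14d, and the dimmest detected had 53, 37, 37 and 56. All 3 detected probe sets placed lines 9v and 14d above lines 10d and 13d. Their highest line was 1.24-, 1.4- and 1.51-fold above the lowest, and the remaining probe set was under the detection level.

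Prkcq encodes PKCθ, an nPKC isoform best known from T cell receptor signalling. It was detected in every line, with intensities of 337 in line 13d, 735 in line 10d, 812 in line 9v and 1435 in line 14d. Line 14d was thus 4.26-fold above line 13d, while lines 10d and 9v, next to each other in the order, differed 1.1-fold. Prkcq has a single probe set, so that no second measurement stands beside these values.

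Prkci and Prkcz encode the atypical isoforms PKCι (PKCλ in mice) and PKCζ, which act in cell polarity with Par3 and Par6 and do not bind phorbol ester. The brightest probe set of Prkci had intensities of 462 in line 13d, 810 in line 10d, 1566 in line 9v and 1646 in line 14d. Lines 9v and 14d differed 1.05-fold from each other, and line 14d was 3.56-fold above line 13d. The other Prkci probe set was close to the detection level, at 40 in lines 9v and 14d and 29 in lines 10d and 13d. It had the same pair of lines on top, but the deposited intensities of the highest and the lowest line had a ratio of 1.38.

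Prkcz ran the other way between these lines. Its brightest probe set had intensities of 149 in line 13d, 111 in line 10d, 73 in line 9v and 6, far under the detection level, in line 14d. Line 13d was therefore at least 4.66-fold above line 14d, taking the detection level for line 14d. A second Prkcz probe set reached the detection level only in line 10d, with 56, and had 30 in line 9v, 29 in line 13d and 5 in line 14d. In both, line 14d was the lowest line. The remaining probe set was at 4 throughout. Line 14d also had the highest value of the immune marker Lyz2, a lysozyme gene, at 9580 against 204 to 334 in the other lines, and the summed intensity of the 9 measured immune markers was 9675 in line 14d and 288 to 425 in the others, which is mostly Lyz2. Of the other 8 immune markers, Csf1r alone was detected, at 51 in line 14d and 34 to 49 in the others, and Ptprc, the gene of the leukocyte antigen CD45, was at 4 or 5 in each line. Line 13d, with the highest Prkcz, had the highest S100b, at 3836 against 5 in line 14d, and the summed intensity of the 8 measured Schwann cell markers was 11533 in line 13d and 5056 to 8972 in the others. The excess of line 13d over line 10d in this sum came from S100b, since the other detected markers, Cdh19, Foxd3 and Sox2, were highest in line 10d. Mbp, a myelin gene, was at 7 or 8. The part of other cell types in the Prkcz, Prkcq and Prkci values was not tested. In bulk RNA, fewer cells with a transcript and less transcript per cell cannot be told apart.

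Prkd1 encodes protein kinase D1, which diacylglycerol recruits and nPKC isoforms phosphorylate. Its brightest probe set had intensities of 1193 in line 13d, 1437 in line 9v, 1843 in line 14d and 2992 in line 10d. The other had 333, 350, 516 and 963 in the same order of lines. Both probe sets gave the same order, and line 10d was 2.51-fold above line 13d by the first and 2.89-fold by the second.

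Rasgrp3 encodes RasGRP3, an exchange factor for Ras and Rap that has its own diacylglycerol-binding C1 domain and is phosphorylated by PKC. It had intensities of 1785 in line 9v, 2957 in line 13d, 2976 in line 14d and 3293 in line 10d. Its second probe set had 297, 466, 502 and 636 in the same order. Line 9v was the lowest by both, and lines 13d and 14d differed by less than 1.1-fold in each, with ratios of 1.01 and 1.08.

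**Figure D2:**
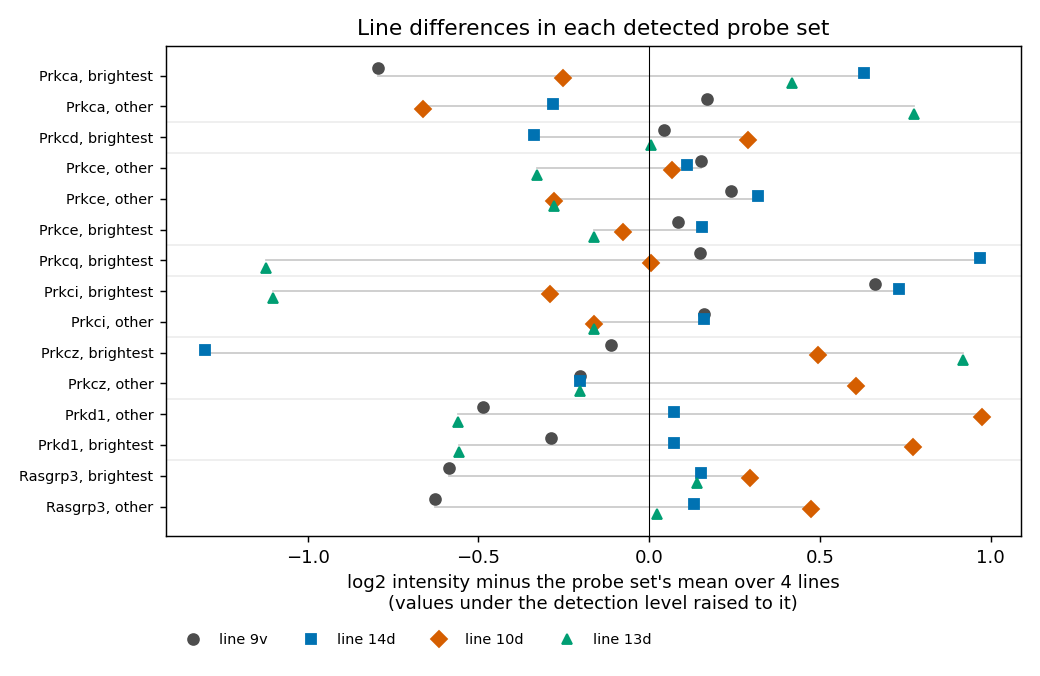
Log2 intensity of each of the 15 detected probe sets minus its own mean over the 4 lines, with values under the detection level of 32 raised to it, and with points of the 4 lines offset vertically so that they can be told apart. Both probe sets of Prkd1 and both of Rasgrp3 gave 1 order of lines each, whereas those of Prkca did not.

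To show the upstream sequence of the genes that differed most between lines, and of Rasgrp3, the 250 bases before a transcript start are given from RefSeq (GRCm38.p6, 5′ to 3′ on the strand of the gene). Capitals mark the GC box GGGCGG, which Sp1 binds, and the E-box CATGTG, which MITF, the master transcription factor of melanocytes, can bind, each on either strand. The window of Prkcz is that of the first of 3 listed starts, chr4:155361429-155361678 (minus strand), and those of Prkcq, Prkci and Rasgrp3 are chr2:11172132-11172381, chr3:30995521-30995770 and chr17:75435655-75435904 (plus strand). The Prkcq gene is annotated from 11171905, so its window with the GC box lies inside the annotated gene. The annotated gene starts of Prkci, 30995742, and Rasgrp3, 75435870, lie near the ends of their windows.
Prkcz: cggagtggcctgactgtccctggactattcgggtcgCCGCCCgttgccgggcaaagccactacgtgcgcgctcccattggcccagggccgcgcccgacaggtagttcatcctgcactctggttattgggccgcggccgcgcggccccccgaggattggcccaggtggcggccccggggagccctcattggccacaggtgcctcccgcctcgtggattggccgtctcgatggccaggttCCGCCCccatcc
Prkcq: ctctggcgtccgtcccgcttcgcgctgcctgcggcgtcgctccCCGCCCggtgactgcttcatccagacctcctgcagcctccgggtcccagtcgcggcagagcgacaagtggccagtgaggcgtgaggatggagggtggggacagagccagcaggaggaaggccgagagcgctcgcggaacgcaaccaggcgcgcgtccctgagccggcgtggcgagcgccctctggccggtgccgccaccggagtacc
Prkci: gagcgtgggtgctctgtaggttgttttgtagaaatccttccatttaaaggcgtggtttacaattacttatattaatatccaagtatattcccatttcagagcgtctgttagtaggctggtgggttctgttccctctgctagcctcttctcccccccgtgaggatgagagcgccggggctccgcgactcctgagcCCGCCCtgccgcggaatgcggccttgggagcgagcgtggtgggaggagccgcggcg
Rasgrp3: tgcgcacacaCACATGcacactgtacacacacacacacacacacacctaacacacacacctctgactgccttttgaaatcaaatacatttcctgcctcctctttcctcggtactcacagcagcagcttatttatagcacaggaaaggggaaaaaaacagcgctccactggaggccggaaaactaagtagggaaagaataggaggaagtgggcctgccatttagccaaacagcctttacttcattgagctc

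Of the 10 genes, 8 matched a window, all but Prkce and Prkch, and together they had 12 windows because several have more than 1 start. The GC box was in 8 of the 12 windows, of Prkca, Prkcb, Prkcd, Prkci, Prkcq, Prkcz (more than 1 window) and Prkd1, against 32.7% of 32851 windows of all genes. These 8 windows were 56.4% to 76.8% G or C, beside a median of 52.4% over all windows. The comparison takes no account of this base composition. CATGTG was in 1 of the 12, of Rasgrp3, against 12.3% of all windows, and lay within a run of CA repeats at its far end. The E-box CACGTG was in 1 of the 12, of Prkcd, against 6.02%. TGACTCA, the element through which AP-1 factors answer phorbol esters, was in none of the 12 and in 4.46% of all windows. Both strands were searched. In the Prkcd window the last base of CACGTG is also the first of a GC box. A match is a description of the letters, and a motif that was not found says only that its letters are not in the window.

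Among the 8 detected genes, the highest line was at least 2-fold above the lowest in 5: Prkcz, Prkcq, Prkci, Prkca and Prkd1. This range was at least 2-fold in 40.1% of the 9415 genes detected in at least 1 line. The median range was 2.59-fold over the 8 genes and 1.79-fold over all detected genes. Ranges as large as that of Prkcz or larger were found in 9.31% of detected genes, of Prkcq in 10.6% and of Prkci in 13.9%. At the other end, 90.2% of detected genes had a range at least as large as that of Prkce. Several of these ranges rest on single lines. Without line 13d the range of Prkcq was 0.97 and that of Prkci 1.02 on the log2 scale, in place of 2.09 and 1.83. Without line 14d the range of Prkcz was 1.03 in place of 2.22, without line 10d that of Prkd1 was 0.63 in place of 1.33, and without line 9v that of Rasgrp3 was 0.16 in place of 0.88. The count of 5 was 3 with the mean of log2 values, with the mean of intensities or without probe sets of suffix _x_, _s_ or _a_. The last setting left out the only detected probe sets of Prkcd and Prkcq. In it the log2 range of Prkci was 0.32. The log2 range of Prkcz, and so its place among all genes, depends on the detection level, since line 14d was under it. It was 3.22 at a level of 16, 1.22 at a level of 64, and 0.92 with the mean of intensities.

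**Figure D3:**
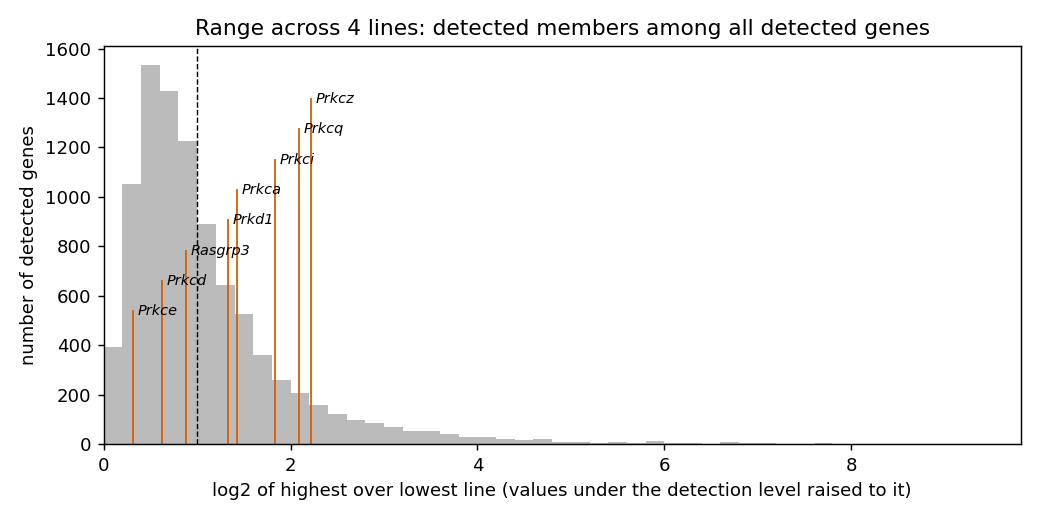
Number of detected genes (vertical axis) by the log2 ratio of their highest to their lowest line, with values under the detection level raised to it, and the 8 detected genes drawn as orange lines whose heights carry no value. The dashed line marks 2-fold, with Prkce, Prkcd and Rasgrp3 to its left and the other 5 to its right.

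By the brightest probe sets, line 14d was the highest line for 4 of the 8 genes (Prkca, Prkce, Prkcq and Prkci), beside 29.7% of all detected genes. Line 10d was highest for 3 (Prkcd, Prkd1 and Rasgrp3), beside 29.1%, line 13d for 1 (Prkcz), beside 22.0%, and line 9v for none, beside 19.1%. Line 13d was the lowest for 4 (Prkce, Prkcq, Prkci and Prkd1), beside 24.0%, line 14d for 2 (Prkcd and Prkcz), beside 27.9%, line 9v for 2 (Prkca and Rasgrp3), beside 21.0%, and line 10d for none, beside 27.2%. Other probe sets had another highest line for Prkca, line 13d, for Prkce, line 9v, and for Prkcz, line 10d. No line has a replicate array, so for no pair of neighbours in these orders can the difference be set against a spread.

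Lines 10d and 9v are the pair whose genotypes are not in dispute, bcat* and WT. Of the 8 genes, Prkd1 was at least 2-fold higher in line 10d, at 2.08-fold by its brightest probe set and 2.75-fold by the other, beside 7.85% of the 9131 genes detected in this pair. None was at least 2-fold lower, beside 10.0% of these genes. Rasgrp3 had a ratio of line 10d to line 9v of 1.84, or 2.14 by its other probe set. The nearest to a 2-fold decrease was Prkci, at 0.517. The ratio was 1.52 for Prkcz, 1.19 for Prkcd, 0.905 for Prkcq and 0.896 for Prkce. With 1 array on each side there was no test.

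With the groups of the labels, no gene was called between bcat* lines (10d and 13d) and WT lines (9v and 14d) by limma at an adjusted p under 0.05, which is 0% of the 9415 genes tested. At an unadjusted p under 0.05 there were 737 genes, of which 1, Prkci, is among the 8. Prkci had a mean log2 intensity of 9.26 ± 0.57 (SD, n = 2) in bcat* lines and 10.65 ± 0.05 (SD, n = 2) in WT lines. Its log2 difference was -1.39 with a 95% interval from -2.44 to -0.34 and an adjusted p = 0.559 in limma. The size of this difference depends on the probe set. It was -1.36 with the mean of intensities over all probe sets and -0.93 with the mean of log2 values. Without probe sets of suffix _x_, _s_ or _a_ only the second Prkci probe set was left, close to the detection level, and the difference was -0.46. Prkcq had a log2 difference of -1.12, with an interval from -2.67 to 0.43 and a limma adjusted p = 0.727. Prkcz had a log2 difference of 2.62, with an interval from -1.09 to 6.33 and a limma adjusted p = 0.732. This size rests on line 14d, which was under the detection level, and the difference was 1.41 with values under that level raised to it and 0.82 without line 14d. The log2 differences of the other 5 lay between -0.24, for Prkce, and 0.44, for Rasgrp3, with limma adjusted p between 0.759 and 0.952. The intervals of Prkca, from -1.55 to 1.88, and of Prkd1, from -1.32 to 1.75, are wide enough to hold a 2-fold difference either way. These p-values measure the spread between lines, and a single value compared by an exact permutation test of 2 lines against 2 cannot go below p = 0.333.

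Both labelled bcat* lines lay above both labelled WT lines for 1 of the 8 genes, Prkcz, beside 19.1% of detected genes. They lay below for 3, Prkce, Prkcq and Prkci, beside 20.1%. The groups overlapped for the other 4.

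With the groups of the article (10d and 14d against 9v and 13d), limma again called no gene, 0% of 9415, and 309 genes had an unadjusted p under 0.05, none of them among the 8. The genes that did not overlap were others. Prkd1 and Rasgrp3 were higher in both bcat* lines of this grouping than in both WT lines, 2 of 8 beside 16.5% of detected genes, and none was lower in both, beside 14.5%. Prkd1 had a log2 difference of 0.84 with an interval from -0.20 to 1.88 and an adjusted p = 0.984 in limma. Rasgrp3 had 0.45 under this grouping and 0.44 under that of the labels. The signs of Prkcd, Prkce, Prkcq, Prkci and Prkcz turned between the groupings, to -0.05, 0.08, 0.97, 0.44 and -2.01. Both groupings use the same 4 arrays, so that they are not independent of each other, and lines 10d and 9v keep their places in both.

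**Figure D4:**
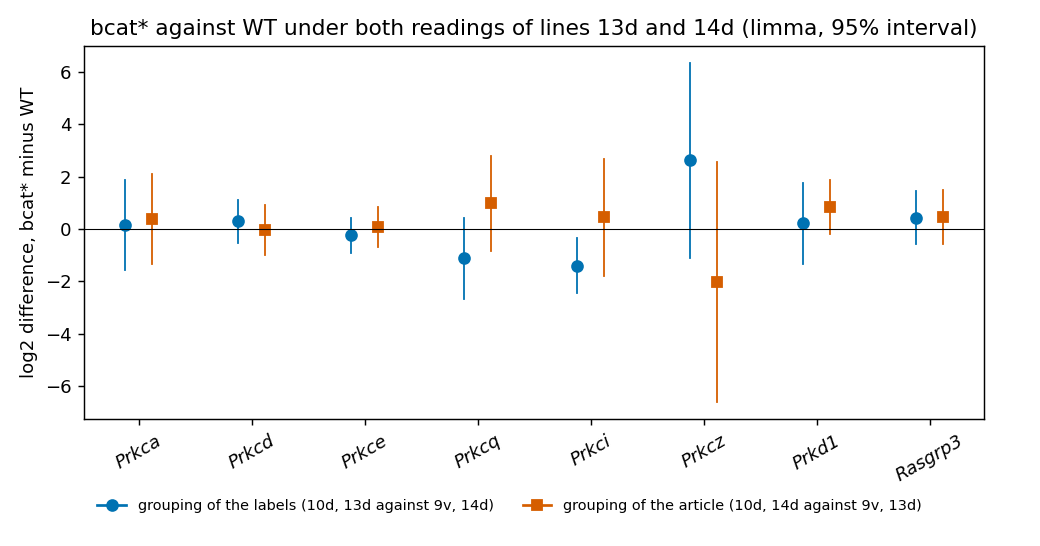
Log2 difference of bcat* minus WT lines (vertical axis) for the 8 detected genes under the grouping of the labels (blue circles) and of the article (orange squares), with bars for the 95% interval from limma. Prkcd, Prkce, Prkcq, Prkci and Prkcz changed sign between the groupings, and only the interval of Prkci under the labels left out 0.

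The patterns over the 4 lines were set against those of all 9414 other detected genes by the root mean square difference of centred log2 values. Nearest to Prkcz were Polr1a, at 0.07, Serinc5, at 0.12, and Ly96, at 0.13. Polr1a, the large subunit of RNA polymerase I, had intensities of 195, 306, 361 and 80 in lines 9v, 10d, 13d and 14d. Nearest to Prkcq were Mvp, the major vault protein gene, at 0.07, Fam219b, at 0.10, and Zbtb26, at 0.12. Nearest to Prkci were Arl2, a small GTPase of tubulin folding, at 0.10, Bclaf3, at 0.10, and Haus7, a subunit of the augmin complex, at 0.13. Arl2 had 1498, 826, 527 and 1597 in lines 9v, 10d, 13d and 14d. With 4 lines such likeness is a description.

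The genes around PKC were taken from 9 lists, with 95 genes listed, 82 measured and 52 detected. The range was at least 2-fold in 23 of these, 44.2%, near the 40.1% of all detected genes. None was called by limma between labelled bcat* and WT lines, and 5 (Chn2, Plcg1, Plcd1, Wwc1 and Ppp1r14c) had an unadjusted p under 0.05, 9.62% of these genes beside 7.83% of all genes tested. Of the other kinases related to PKC, all 4 measured were detected, none reached a 2-fold range, and their median range was 1.37-fold beside 1.79-fold over all detected genes. Prkd3, a second protein kinase D, had intensities of 940, 1484, 1547 and 1066 in lines 9v, 10d, 13d and 14d. A nearly as bright Prkd3 probe set had 1067, 1181, 1260 and 1274, a range of 1.19-fold, and the dimmest detected had a range of 1.56-fold. Pkn2, a kinase whose catalytic domain resembles that of PKC, had 1058, 686, 739 and 1051. Its other probe set had 366, 319, 367 and 362, a range of 1.15-fold. Of 9 genes listed as other phorbol-binding C1 proteins, Chn2 alone was detected. Whether each of the 9 proteins has a C1 domain that binds phorbol ester was not checked. Rasgrp1, Rasgrp2 and Rasgrp4 were at 12 or less in every line by their brightest probe sets, so that of the RasGRP genes Rasgrp3 alone was detected. Chn2 encodes β-chimaerin, a Rac GTPase-activating protein. It had intensities of 107 in line 9v, 145 in line 14d, 337 in line 10d and 456 in line 13d, a log2 difference between labelled groups of 1.65 with a limma adjusted p = 0.487. Its second probe set also placed lines 10d and 13d above lines 9v and 14d, at 140 and 290 against 84 and 80.

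Upstream of PKC, Gq proteins and phospholipase C release diacylglycerol. Of 15 such genes measured, 8 were detected and 5 had a 2-fold range, with a median of 2.64-fold. Gnaq, Gna11 and Plcb4, the Gq route to PKC in pigment cells, were detected in all 4 lines. Plcg2, a phospholipase C of receptor signalling, had 327 in line 9v, 323 in line 13d, 144 in line 14d and 19 in line 10d. Line 9v was thus at least 10.2-fold above line 10d. Plcd1 was detected in line 13d alone, at 126, and had 19 in line 10d, 6 in line 14d and 5 in line 9v. Diacylglycerol kinases, which remove diacylglycerol, had 3 of 8 measured genes detected, 1 with a 2-fold range and with a median of 1.44-fold. Dgkd had 614, 756, 641 and 302 in lines 9v, 10d, 13d and 14d, and its second detected probe set also had line 14d lowest, at 33 against 118 to 155. Dgkz had 1253, 897, 1117 and 1292, and by its other probe set 132, 81, 78 and 145.

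Newly made PKC is phosphorylated by PDK1 and mTORC2 and dephosphorylated by PHLPP phosphatases. All 7 measured genes of this list were detected, 4 with a 2-fold range and with a median of 2.23-fold. Rictor, the defining subunit of mTORC2, had 611, 1517, 855 and 1455 in lines 9v, 10d, 13d and 14d, with the same line lowest and the same line highest in its 3 detected probe sets. Phlpp2 had 80, 49, 73 and 134. Of 11 measured scaffolds and atypical PKC partners, 8 were detected and 4 had a 2-fold range, with a median of 2.23-fold. Pard6g, a Par6 partner of atypical PKC, had 687 in line 10d, 82 in line 9v, 39 in line 14d and 21 in line 13d, at least 21.5-fold between the highest and the lowest line. Akap12, a scaffold and PKC substrate, had 1868 in line 13d, 1121 in line 9v, 582 in line 10d and 275 in line 14d.

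Of 13 measured PKC substrates, 9 were detected and 2 had a 2-fold range, with a median of 1.52-fold. Marcks, the best known of them, had intensities between 15140 and 20320. Plek, pleckstrin, known as the main PKC substrate of platelets, had 382 in line 14d, 69 in line 10d, 45 in line 9v and 14 in line 13d. Line 14d, the highest, was also the line with the highest Lyz2, and the part of other cells was not tested. Ezr, ezrin, had 1826, 1327, 1029 and 366 in lines 13d, 14d, 10d and 9v by 1 probe set, and 257 to 267 by the other. Of 5 genes of the list of phosphatase inhibitors that PKC regulates and Pebp1, 3 were detected and 2 had a 2-fold range, with a median of 3.06-fold. Ppp1r14b had 3537, 1156, 3274 and 3069 in lines 9v, 10d, 13d and 14d, and Ppp1r14c had 105, 10, 13 and 44. Of 10 measured genes from Ras to ERK, the route on which RasGRP3 acts, 9 were detected and 4 had a 2-fold range, with a median of 1.8-fold. Mras had 134, 9, 79 and 86 in lines 9v, 10d, 13d and 14d, and Map2k2, the MEK2 gene, had 1750, 687, 1372 and 1868, with line 10d lowest in both. The other Map2k2 probe set also had line 10d lowest, at 268, but its range was 1.4-fold in place of 2.72-fold.

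**Figure D5:**
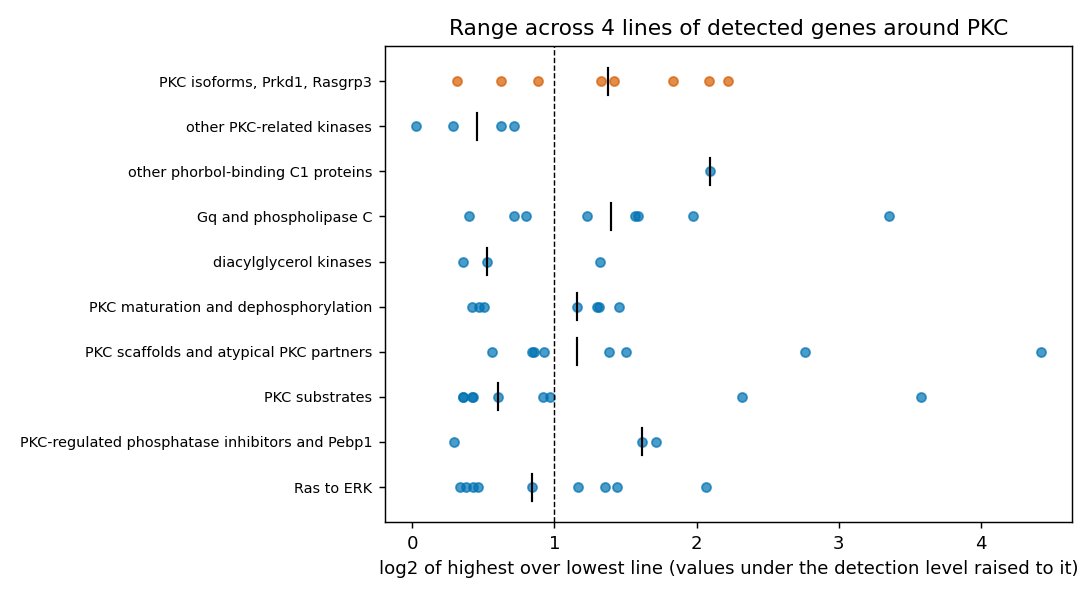
Log2 ratio of the highest to the lowest line for each detected gene of the 9 lists around PKC (blue) and of the PKC isoforms, Prkd1 and Rasgrp3 (orange), with a vertical bar at the median of each list and a dashed line at 2-fold. The 8 orange points lie on both sides of 2-fold, as do the genes of most lists.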

How the data were processed

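Total RNA from 4 mouse lines of melanocytes was hybridised to Affymetrix arrays, a single array for each line. The authors deposited 1 intensity per probe set, and the submitters' processing notes name GCRMA, a method that corrects background from probe sequence and normalizes between arrays. Neither its version nor the genome build is given in the sources used here. As deposited, intensities were whole numbers from 2 upwards with medians of 7 or 8, so the scale was read as linear and log2 was taken. Rounding to whole numbers makes dim values coarse, and precision is limited by the number of arrays.

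Of 45037 probe sets, 34945 were listed with 1 gene in the platform annotation, 932 with several and 9160 were not listed. The brightest probe set of a gene, by mean log2 value, stood for it. Genes reaching 32 in 1 or more lines were called detected, and for ranges and line ratios lower values were raised to 32. Groups were those of the sample labels. They were compared with limma (lmFit, eBayes, Benjamini-Hochberg adjustment over 9415 detected genes), which was tested on simulated data. Alternatives changed the probe set rule, detection level, normalization, fold threshold, genotype grouping and lines, and added sex as a block.

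The genes named were the 10 members, up to 2 detected genes of each pathway list with the largest range, and the 3 genes nearest in pattern to each of the 3 members with the largest range. Other genes named (Gnaq, Gna11, Plcb4, Marcks, Plcg1, Wwc1, the other RasGRP genes and single markers) were chosen after their values were seen. Members and lists were chosen with earlier results of these data known. R 4.3.3, limma 3.58.1, Python 3.11.15, NumPy 2.4.6, pandas 2.3.3 and matplotlib 3.10.9 were used.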

Additional observations from a re-analysis of the deposited data

Results flagged for a closer look

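By the labels, each sex holds 1 WT and 1 bcat* line, so the difference between genotypes can be taken in males (10d minus 9v) and in females (13d minus 14d). In 3 of the 8 detected genes it went opposite ways. The share of all detected genes that did so was not computed, so this count has nothing to be set against. For Prkca the log2 difference was 0.54 in males and -0.21 in females, and the latter less the former was -0.75. Its second detected probe set had opposite signs as well, but turned round. For Prkd1 the differences were 1.06 and -0.63, which gives -1.69. For Rasgrp3 they were 0.88 and -0.01, which gives -0.89. With 1 line of each genotype per sex, the difference between the sexes was not tested. Under the article's genotypes of lines 13d and 14d the sign in females turns. By this turn alone, these 3 genes then go the same way in both sexes while the other 5 go opposite ways.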

How the results depend on the processing

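Replicate numbers pair no lines, since the labels give none. With the labelled sex as a block, which pairs line 10d with 9v and line 13d with 14d, limma called 0 members and 0 of all genes. The number of detected members was 6 to 8 under every alternative run. The number with a 2-fold range was 5 in the main setting. It was 3 with the mean of log2 values over all probe sets and 3 with the mean of linear intensities. It was also 3 without probe sets of suffix _x_, _s_ or _a_, which left out the only detected probe sets of Prkcd and Prkcq. The number was 3 at a 3-fold threshold, 6 after median centring, 7 at a 1.5-fold threshold, and 4 to 5 when 1 line was left out. The number of members at least 2-fold higher in line 10d than in line 9v was 2 after median centring, 3 at a 1.5-fold threshold and 0 at a 3-fold threshold. The number lower was 1 at 1.5-fold. Median centring shifted line 10d by 0.14 and each other line by -0.05 on the log2 scale. The medians it used were 7 in line 10d and 8 in each other line, whole numbers under the detection level. Over detected genes the median log2 values of the lines were alike, from 9.15 to 9.18. limma called 0 members under every alternative run. Over all genes it called 6 with the mean of log2 values, 5 with the mean of intensities, 7 after median centring, 6 after quantile normalization, 6 at a detection level of 64, and 281 without the filter on low values, 243 of them under the detection level in all lines. The other alternatives, the article's grouping among them, gave 0. With the article's grouping the log2 difference reversed to -0.048 for Prkcd, 0.078 for Prkce, 0.97 for Prkcq, 0.44 for Prkci and -2.01 for Prkcz. When 1 line was left out, that of Prkca ran from -0.54 to 0.88 and that of Prkd1 from -0.45 to 0.88, and the other 6 kept their sign. Adjusted p of the members ran from 0.344 to 1 over the alternatives. Of 268 recomputed ranges of 25 genes, 47 moved by over 1.5-fold. The cause of these changes was not tested. Values near the detection level limit what Prkcz, the second probe set of Prkci and other dim genes can show.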
